A study of Bos indicus x Bos taurus with 17 samples.

Results

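The genes described here are the core set for moving iron between cells, storing it and setting its release into blood: the plasma carrier transferrin (TF), the transferrin receptors TFRC and TFR2, the ferritin chains FTH1 and FTL, the iron hormone hepcidin (HAMP), its regulators HFE and TMPRSS6, and the membrane transporters SLC40A1 and SLC11A2. They were chosen by name for these roles, and are 10 of the 21048 genes in the count tables. Polyadenylated RNA of liver and skeletal muscle was sequenced from 6 healthy hybrid cattle fetuses (Bos indicus, Nelore, crossed with Bos taurus, Holstein) at about day 105 of gestation. In the ART-Normal group, 4 fetuses were produced in vitro, and in the Control-AI group 2 fetuses were conceived by artificial insemination. The study describes the body weights of its ART-Normal fetuses as very similar to those of the controls. ART-Normal 4 appears in the labels but not in the study's list of fetuses, so no weight is listed for it. Each fetus gave 1 liver and 1 muscle library, so that the 12 libraries are 6 pairs.

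Iron travels in plasma bound to transferrin, which cells take up through transferrin receptors, and iron that is not used at once is held inside ferritin shells. Ferroportin is the exporter that returns iron to plasma, and hepcidin, a peptide made by hepatocytes, blocks and degrades it. The fetal liver is also a site of red cell production, and red cell precursors take up much iron for heme, whereas muscle uses iron for myoglobin and mitochondria.

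Total counts were between 18454088 and 43339598 in liver and between 12433300 and 23578362 in muscle, and levels are given as CPM, counts scaled to a common library total with TMM factors over the 12 libraries. As a description of the tissues, with many markers passing the filter through 1 tissue only, liver had higher levels of 9 of 9 hepatocyte, 13 of 15 erythroid and 8 of 9 macrophage markers, and lower levels of 7 of 7 skeletal muscle markers than muscle, in both conception groups. Control-AI 2 stood apart in both tissues, at 43.1 on the first principal component in liver and 42.2 in muscle, with no other library above -2.04 in liver or -4.36 in muscle. The 9 hepatocyte markers summed to 343400 CPM in its liver, against 30190 to 57910 CPM in the other 5 livers. The rise was not shared by all: AHSG was at 149400 CPM, ALB at 74970 CPM, SERPINA1 at 59090 CPM and AFP at 41380 CPM. HNF4A at 260.4 CPM, TTR at 2236 CPM and APOA1 at 1583 CPM lay within the range of the other livers. Its erythroid markers summed to 27760 CPM, against 9335 to 10400 CPM, and HBG alone was at 20440 CPM. In these bulk samples, fewer cells of a type and less RNA per cell cannot be told apart.

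Of the 10 genes, 9 had counts. HFE, a membrane protein that takes part in iron sensing upstream of hepcidin, was listed at 0 in all 12 libraries. On the ARS-UCD1.2 assembly, HFE (gene 497622, minus strand, chromosome 23, 31855157 to 31864399) lies wholly inside the span of LOC617905 on the same strand (31846920 to 31908650). All 224 of the 224 genes that lie wholly inside a gene on the same strand were at 0 in every library, against 2013 of 17705 genes (11.4%) that overlap no other gene. The listed value of HFE therefore gives no measure of its expression. The other 9 genes overlap no other gene in the tables.

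Transferrin (TF, gene 280705, chromosome 1, 135579069 to 135618070, minus strand) carries ferric iron in plasma and is a major secreted product of hepatocytes. In liver it was at 12160, 6904, 13540 and 11800 CPM for ART-Normal 1 to 4, and at 20740 and 12530 CPM for the controls 2 and 4. In muscle it was at 0.475, 2.28, 3.34 and 2.13 CPM for ART-Normal 1 to 4, from 12 to 77 counts, and at 30.6 and 1.70 CPM for the controls 2 and 4, from 406 and 42 counts. Every liver library was far above every muscle library, and Control-AI 2 was the highest in both tissues. The log2 fold change of liver over muscle was 12.40 (SE 1.02) in ART-Normal and 10.03 (SE 1.32) in Control-AI. TF passed the filter of 5 CPM only through liver, which fixed this direction, so no p is given for it. Every adjusted p given here for the tissues comes from edgeR's quasi-likelihood test with Benjamini-Hochberg adjustment over 12923 genes.

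**Figure D1:**
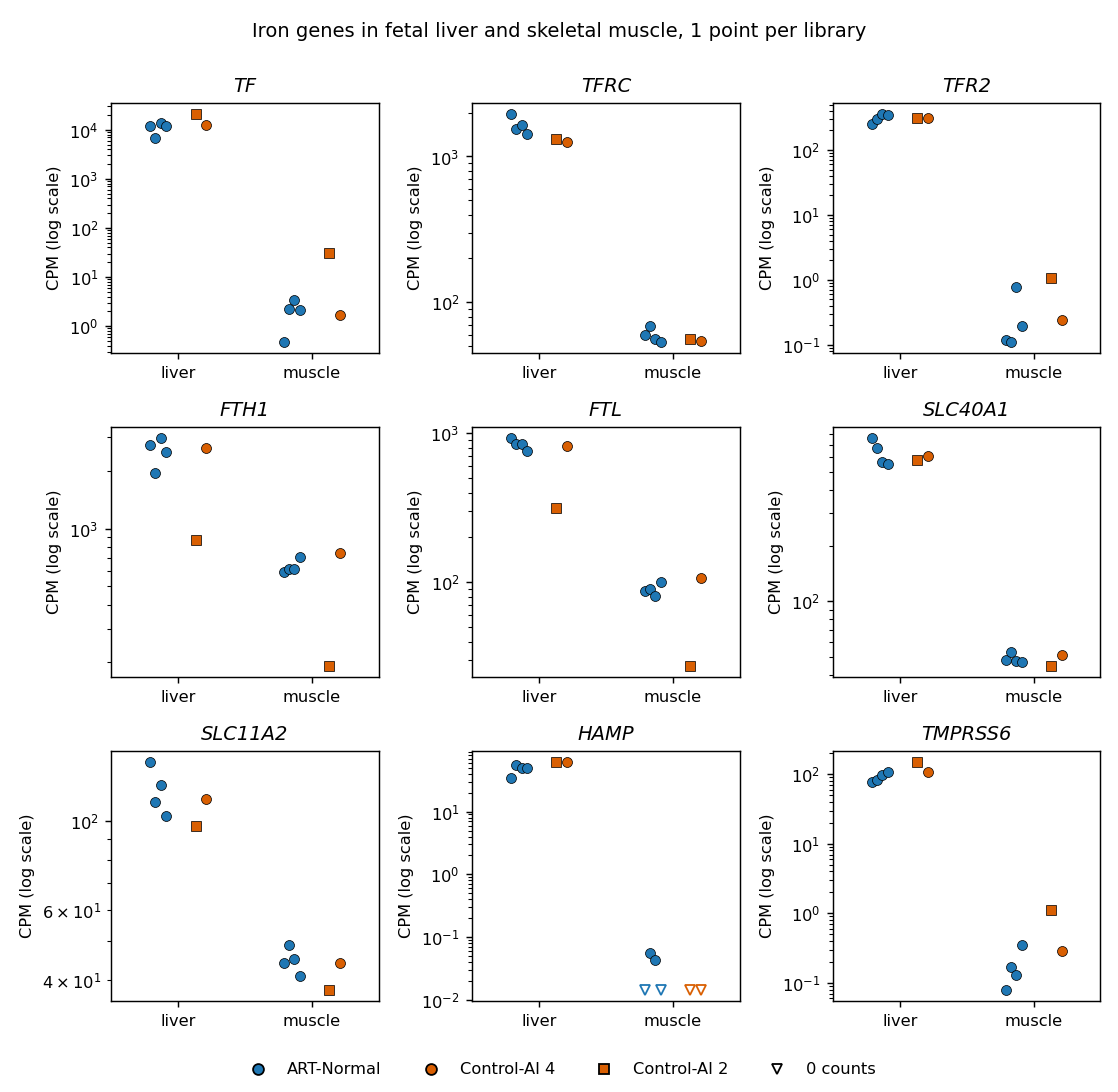
Level of each of the 9 genes with counts in every library, in CPM on a log scale, with liver on the left and muscle on the right of each panel and 1 point per library; triangles at the bottom mark libraries with 0 counts. All liver points lie above all muscle points for each of the 9 genes, and the Control-AI 2 squares lie lowest for FTH1 and FTL in both tissues.

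The muscle level of TF was 0.00391%, 0.033%, 0.0247% and 0.0181% of the liver level of the same fetus in ART-Normal 1 to 4, 0.148% in Control-AI 2 and 0.0136% in Control-AI 4. Albumin (ALB), another secreted hepatocyte product, was at 0.0125% in ART-Normal 1 and 0.109% in Control-AI 2, the lowest and the highest of the 6 fetuses for both genes. The shares of TTR, APOA2 and FGB were also highest in Control-AI 2, at 0.162%, 0.0768% and 0.124%. Those of AHSG and SERPINA1 were highest in ART-Normal 3, at 0.303% and 0.104%. Those of APOA1 and HNF4A were highest in ART-Normal 4, at 1.52% and 0.153%. AFP was at 0.108% in both ART-Normal 4 and Control-AI 2. By CPM in muscle, 7 of the 9 hepatocyte markers were highest in the Control-AI 2 library. The 9 markers summed to 370 CPM there, against 25.1 to 63.5 CPM in the other 5 muscles. In the Control-AI 2 liver, the skeletal muscle markers summed to 31.9 CPM, against 6.82 to 9.55 CPM in the other 5 livers. The part of hepatocyte RNA in the muscle level of TF was not tested.

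**Figure D2:**
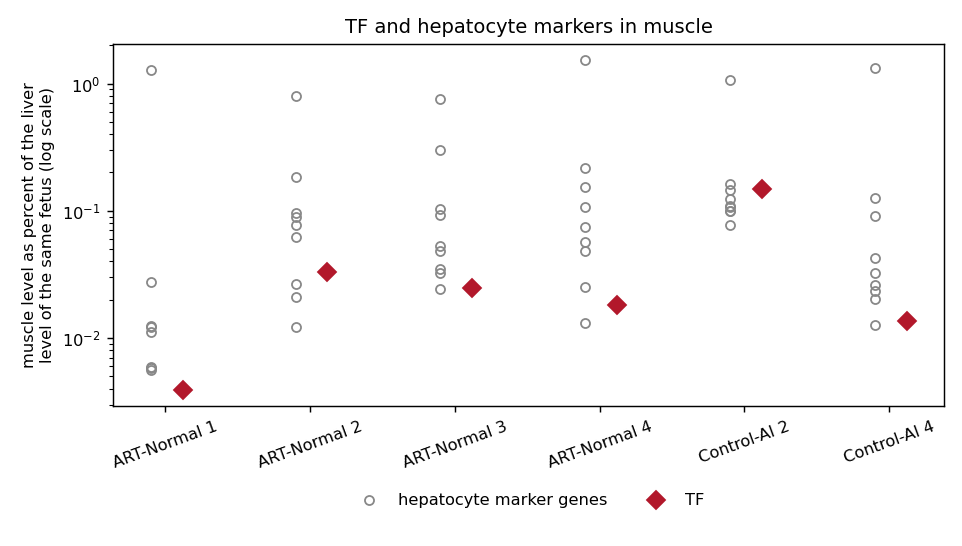
Muscle level of TF (diamonds) and of the hepatocyte marker genes (open circles) as a percentage of the liver level in the same fetus, on a log scale; a marker with 0 muscle counts is not drawn. TF is at 0.148% in Control-AI 2 and between 0.00391% and 0.033% in the other 5 fetuses; the highest circle in each fetus is APOA1.

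Among the receptors, TFRC (gene 504698, chromosome 1, 70650067 to 70724638, minus strand), the receptor that most cells use to take up transferrin and that red cell precursors carry in large amounts, was measured well in both tissues. Its liver levels were 1946, 1554, 1646 and 1419 CPM for ART-Normal 1 to 4, and 1315 and 1261 CPM for the controls 2 and 4. Its muscle levels were 59.9, 69.3, 56.1 and 53.6 CPM for ART-Normal 1 to 4, and 55.9 and 54.6 CPM for the controls 2 and 4. Liver was higher 27.5-fold in ART-Normal (log2 fold change 4.78, SE 0.16, adjusted p = 2.96e-11) and 23.3-fold in Control-AI (log2 fold change 4.54, SE 0.23, adjusted p = 3.34e-09). Summed, the erythroid markers were at 110.4 to 664 CPM in muscle, of which HBG made up 80.4 to 542.5 CPM, and at least 9335 CPM in liver. Of the 15 markers, 13 were higher in liver. HBA and HBA1 did not pass the threshold, and HBA1 had log2 fold changes of -1.24 in ART-Normal and -1.10 in Control-AI. The part of the erythroid markers in the TFRC difference was not tested.

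TFR2 (gene 617916, chromosome 25, 35933792 to 35946168, plus strand) is the second transferrin receptor, found mainly on hepatocytes and red cell precursors, where it takes part in sensing transferrin-bound iron. It was at 254.9, 301.9, 355.6 and 342.4 CPM in the livers of ART-Normal 1 to 4 and at 313.1 and 314.5 CPM in those of Control-AI 2 and 4. In muscle, the ART-Normal libraries had 3, 2, 18 and 4 counts and the Control-AI libraries 14 and 6 counts, at most 1.05 CPM. TFR2 thus had steady liver levels and almost no muscle counts. Liver exceeded muscle by 9.95 on the log2 scale in ART-Normal (SE 0.40) and by 9.15 in Control-AI (SE 0.55). Like TF, TFR2 passed the filter only through liver, which fixed this direction.

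The ferritin genes encode the chains of the iron storage shell: FTH1 (gene 281173, chromosome 29, 40477532 to 40480196, minus strand) the heavy chain that oxidizes ferrous iron, and FTL (gene 286861, chromosome 18, 55538469 to 55540367, plus strand) the light chain that helps iron to mineralize. In liver, FTH1 was at 2734, 1959, 2969 and 2519 CPM for ART-Normal 1 to 4, at 875.3 CPM for Control-AI 2 and at 2639 CPM for Control-AI 4. In muscle it was at 591.6, 615.7, 615.8 and 712.2 CPM for ART-Normal 1 to 4, at 191.9 CPM for Control-AI 2 and at 747.9 CPM for Control-AI 4. Control-AI 2 was the lowest library in each tissue, while Control-AI 4 lay within the ART-Normal range in liver and just above it in muscle.

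FTL was likewise lowest in Control-AI 2. Its liver levels were 927.1, 848.5, 849.3 and 760.1 CPM for ART-Normal 1 to 4, 315.4 CPM for Control-AI 2 and 818.7 CPM for Control-AI 4. Its muscle levels were 87.0, 90.4, 80.8 and 101.2 CPM for ART-Normal 1 to 4, 27.5 CPM for Control-AI 2 and 106.6 CPM for Control-AI 4. The order of the other libraries was not that of FTH1, and Control-AI 4 lay within the ART-Normal range in liver and above it in muscle.

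Liver held more of both ferritin transcripts than muscle in each of the 6 fetuses, 3.18 to 4.82 times as much FTH1 and 7.51 to 11.5 times as much FTL. For FTH1 the log2 fold change was 2.01 (SE 0.39, adjusted p = 0.000418) in ART-Normal and 1.90 (SE 0.56, adjusted p = 0.00857) in Control-AI. For FTL it was 3.24 (SE 0.37, adjusted p = 3.23e-06) and 3.07 (SE 0.52, adjusted p = 0.000179). The balance of the chains differed between the tissues: the ratio of FTH1 counts to FTL counts was 2.31 to 3.50 in the 6 livers and 6.80 to 7.63 in the 6 muscles, with no overlap. These count ratios are not corrected for transcript length, so they compare libraries and not the amounts of the chains, and the difference between the tissues was not tested. Control-AI 2, at 2.78 in liver and 6.98 in muscle, was within the range of the other libraries.

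The low ferritin level of Control-AI 2 was seen beside a lower level of ribosomal protein genes. Against the mean of the other 5 libraries of its tissue, FTH1 was at a log2 ratio of -1.55 in liver and -1.77 in muscle, and FTL at -1.41 and -1.74. The median of 81 ribosomal protein genes was -0.86 in liver and -0.88 in muscle, whereas genes with a span under 3000 bp had medians of -0.25 and -0.06 and all genes tested -0.02 and 0.00084. The cause of the shared shift was not tested.

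**Figure D3:**
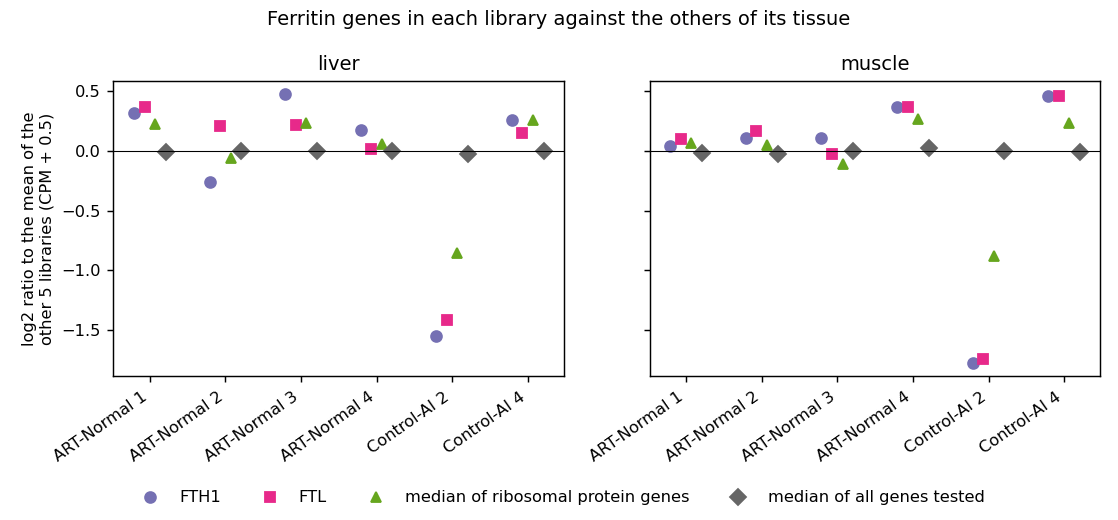
Log2 ratio of each library to the mean of the other 5 libraries of its tissue for FTH1, FTL, the median of 81 ribosomal protein genes and the median of all genes tested, in liver (left) and muscle (right). FTH1 and FTL of Control-AI 2 lie between -1.41 and -1.77, and those of the other libraries lie between -0.26 and 0.47.

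HAMP (gene 512301, chromosome 18, 45994911 to 45996358, plus strand) encodes hepcidin. Its liver levels were 34.3, 55.5, 49.7 and 49.8 CPM for ART-Normal 1 to 4, and 61.2 and 61.3 CPM for the controls 2 and 4. In muscle, 1 count was found in each of ART-Normal 2 and 3 and none in the other 4 libraries. Summed over the ART-Normal group, 5940 liver counts stood against 2 muscle counts, a CPM ratio of 2120 with an exact 95% interval of 588 to 17500 that covers counting error only. In Control-AI, 2272 liver counts stood against 0 muscle counts, and with the muscle group set at the floor of 3 counts, liver was at least 776-fold higher. HAMP transcript was thus detected in every liver and was at or under the floor in every muscle.

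TMPRSS6 (gene 614844, chromosome 5, 75493589 to 75533139, minus strand) encodes matriptase-2, a liver protease that lowers hepcidin production by cutting hemojuvelin. It was at 76.9, 83.2, 98.4 and 106.3 CPM in the livers of ART-Normal 1 to 4 and at 149 and 106 CPM in those of Control-AI 2 and 4. In muscle it had 2, 3, 3 and 7 counts in ART-Normal 1 to 4, and 15 and 7 counts in Control-AI 2 and 4. As with TFR2, Control-AI 2 had the highest muscle level, 1.13 CPM. The log2 fold change of liver over muscle was 8.99 (SE 0.35) in ART-Normal and 7.70 (SE 0.44) in Control-AI, in a direction fixed by the filter, which TMPRSS6 passed only through liver. Within liver, the ratio of HAMP counts to TMPRSS6 counts was between 0.411 and 0.667, with the lowest value in Control-AI 2 and the highest in ART-Normal 2, so the ranges of the groups overlapped.

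SLC40A1 (gene 527023, chromosome 2, 6774992 to 6800154, plus strand) encodes ferroportin, the only known cellular iron exporter of mammals and the target of hepcidin. It was at 761.5, 673.7, 567.4 and 553.3 CPM in the livers of ART-Normal 1 to 4, and at 577.5 and 612 CPM in those of Control-AI 2 and 4. In muscle the 6 libraries lay between 44.7 and 53.4 CPM, and the groups overlapped. Liver was 13.1-fold higher in ART-Normal (log2 fold change 3.71, SE 0.14, adjusted p = 5.92e-11) and 12.4-fold higher in Control-AI (log2 fold change 3.63, SE 0.19, adjusted p = 5.39e-09). The ratio of TFRC to SLC40A1 counts, uptake receptor to exporter, was 2.06 to 2.90 in liver and 1.07 to 1.30 in muscle, again without overlap and without a test.

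SLC11A2 (gene 521189, chromosome 5, 28722064 to 28757977, plus strand) encodes DMT1, which moves ferrous iron out of endosomes into the cytosol. Its liver levels were 140.3, 111.8, 122.8 and 102.7 CPM for ART-Normal 1 to 4, and 97.3 and 113.7 CPM for the controls 2 and 4. Its muscle levels were 44.1, 48.9, 45.2 and 40.8 CPM for ART-Normal 1 to 4, and 37.8 and 44.0 CPM for the controls 2 and 4. It had the smallest tissue difference of the 9 genes, 2.67-fold in ART-Normal (log2 fold change 1.42, SE 0.12, adjusted p = 1.06e-07) and 2.58-fold in Control-AI (log2 fold change 1.37, SE 0.16, adjusted p = 8.26e-06).

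TFRC, FTH1, FTL, SLC40A1 and SLC11A2 passed the filter of 5 CPM in both tissues, and all 5 were higher in liver in both conception groups. Over all 12923 genes tested, 39.0% were called higher in liver and 38.7% higher in muscle in ART-Normal, and 33.5% and 33.8% in Control-AI. Among the 10076 genes that like these 5 passed in both tissues, the shares were 38.1% and 34.3% in ART-Normal and 31.6% and 28.8% in Control-AI. TF, TFR2, HAMP and TMPRSS6 passed the filter only through liver, so their direction between the tissues was fixed by the filter and only its size is informative. With Control-AI 2 left out, the Control-AI group rested on 1 fetus. The log2 fold change in Control-AI was then 1.77 for FTH1 and 2.89 for FTL. For TF and TMPRSS6, where only the size is informative, it was 12.79 and 8.47.

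The second question of the design was whether these genes differed between fetuses produced in vitro and those conceived by artificial insemination. None of the 9 genes tested in liver and none of the 5 tested in muscle passed the edgeR quasi-likelihood test. Over all genes 0% (0 of 11304) were called in liver and 0.00855% (1 of 11695) in muscle, with 948 and 1075 genes at an unadjusted p under 0.05. The likelihood ratio test and DESeq2 called 89 and 56 genes in liver and 120 and 106 in muscle, and none of the 10 genes was among them. With 2 controls, a p that misses the threshold does not show that the groups were alike.

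In liver, TFRC was higher in all 4 ART-Normal libraries than in both controls and HAMP was lower in all 4. Among all genes tested in liver, 9.19% lay wholly above both controls and 9.18% wholly below, so such an order in 1 of 9 genes each way is near the background. ART-Normal relative to Control-AI had a log2 fold change of 0.35 for TFRC (SE 0.19, adjusted p = 0.592) and -0.37 for HAMP (SE 0.18, adjusted p = 0.589). Without Control-AI 2 these values were 0.39 and -0.36, so that neither rests on that library.

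TMPRSS6 had the lowest unadjusted p of the 9 genes in liver, 0.022, at a log2 fold change of -0.49 (SE 0.18, adjusted p = 0.549), and its groups overlapped, since ART-Normal 4 at 106.3 CPM exceeded Control-AI 4 at 106 CPM. Without Control-AI 2 its log2 fold change was -0.21. TF was at -0.59 (SE 0.33, adjusted p = 0.592) and at -0.16 without Control-AI 2, whose liver had the highest hepatocyte marker sum. The liver log2 fold changes of TFR2, SLC40A1 and SLC11A2 were -0.0042, 0.10 and 0.17, with standard errors of 0.16, 0.18 and 0.15.

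For the ferritins, the value of the comparison was set by 1 control. In liver the log2 fold change was 0.53 for FTH1 (SE 0.38, adjusted p = 0.643) and 0.58 for FTL (SE 0.32, adjusted p = 0.592), and in muscle 0.44 (SE 0.39, adjusted p = 0.788) and 0.42 (SE 0.38, adjusted p = 0.792). Without Control-AI 2 they were -0.04 and 0.06 in liver and -0.25 and -0.25 in muscle. With Control-AI 2 as the only control, they were 1.53 and 1.42 in liver and 1.74 and 1.73 in muscle. No p is given for these values, since a group of 1 fetus has no spread of its own.

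**Figure D4:**
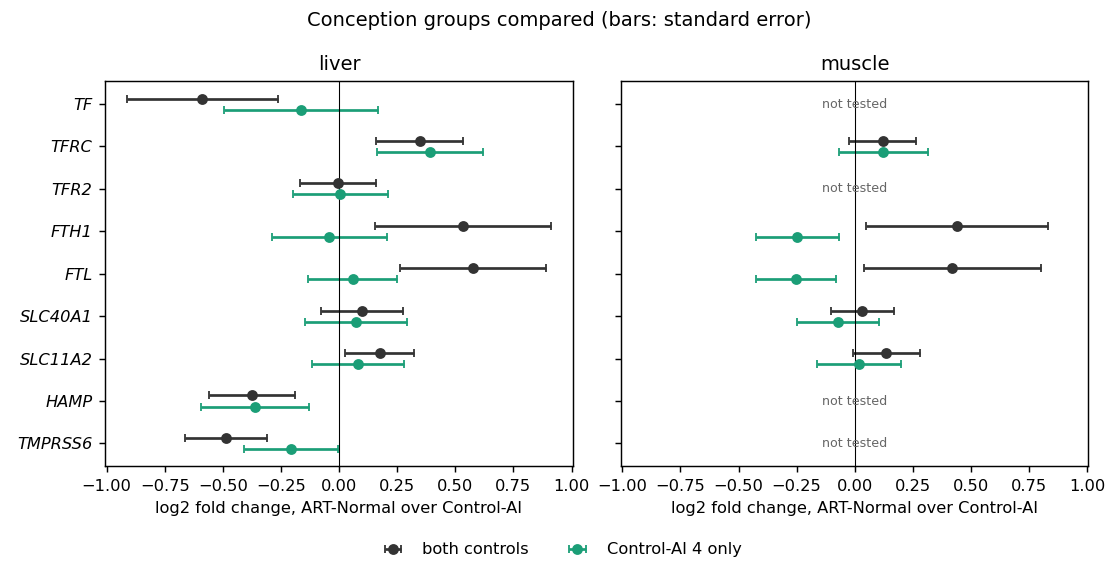
Difference between ART-Normal and Control-AI as a log2 fold change with its standard error for each gene tested, in liver (left) and muscle (right), with both controls (black) and with Control-AI 4 as the only control (green). FTH1 and FTL lie between 0.42 and 0.58 with both controls and between -0.25 and 0.06 with Control-AI 4 only, and TFRC and HAMP in liver keep their values.

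In muscle, the remaining genes that could be tested were close to 0: TFRC had a log2 fold change of 0.12 (SE 0.14, adjusted p = 0.849), SLC40A1 of 0.03 (SE 0.14, adjusted p = 0.966) and SLC11A2 of 0.14 (SE 0.14, adjusted p = 0.822). Each of the 5 genes had overlapping groups, where 8.15% of all genes tested in muscle lay wholly above and 7.89% wholly below both controls. The interaction of tissue and conception method was called for 0% of 12923 genes by the quasi-likelihood test, with 717 at an unadjusted p under 0.05, 98 by the likelihood ratio test and 37 by DESeq2. TF had the largest interaction of the genes with muscle counts in every library, a tissue difference larger in ART-Normal by 2.37 on the log2 scale (SE 1.16, adjusted p = 0.925), and the value was -0.39 without Control-AI 2.

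The wider iron pathway was described with 5 gene lists. None of their genes was called between ART-Normal and Control-AI in either tissue, so the values below compare liver with muscle in ART-Normal, where 38.1% of the 10076 genes that passed the filter in both tissues were called higher in liver and 34.3% higher in muscle, with a median log2 fold change of 0.048. Counts and medians below cover the genes that passed in both tissues, since the filter fixed the direction of the others. Of 15 such genes in the signalling chain that drives hepcidin, 5 were higher in liver, a share near that of all genes, and 9 in muscle (median -0.96). SMAD6, an inhibitor in that chain, was higher in liver by 2.58 on the log2 scale (SE 0.14), and so was FURIN, a protease that processes hemojuvelin, by 2.41 (SE 0.15). SMAD1, which carries the signal to the nucleus, was at -2.39 (SE 0.11). The ligand BMP6, which passed only through muscle, was at 2.69 to 4.64 CPM in the 6 livers and 9.80 to 13.5 CPM in the 6 muscles. HJV, the hemojuvelin coreceptor, was named by the same rule in Control-AI, at -2.04 (SE 0.26).

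Of 6 genes for iron sensing and ferritin turnover, 5 were higher in liver and none in muscle (median 0.70). NCOA4, the receptor that delivers ferritin to lysosomes, stood at 455 to 559.6 CPM in ART-Normal livers against 77.5 to 81.4 CPM in ART-Normal muscles (log2 fold change 2.60, SE 0.12). PCBP1, a chaperone that brings iron to ferritin, was higher in liver by 0.79 (SE 0.14). In Control-AI, 3 of the 6 were higher in liver, among them the iron-sensing aconitase ACO1 at 0.81 (SE 0.15).

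Of 5 oxidases, reductases and other carriers that passed in both tissues, 2 were higher in liver and 1 in muscle (median 0.23), and 5 more passed only through liver, among them STEAP4 and LCN2. STEAP4, a metal reductase, was at 8.36 to 15.1 CPM in the 6 livers and at most 0.198 CPM in the muscles. LCN2, which binds iron-loaded siderophores, was at 23.5 to 51.4 CPM in liver and at most 0.226 CPM in muscle. SCARA5, a ferritin receptor, was higher in muscle by 1.21 on the log2 scale in ART-Normal, at -1.21 (SE 0.19). The plasma ferroxidase ceruloplasmin (CP), singled out after its values were seen, did not pass the filter. It was at 6.81 CPM in the liver and 10.8 CPM in the muscle of Control-AI 2, against 0.542 to 1.33 CPM in the other 5 livers and 0.243 to 1.28 CPM in the other 5 muscles.

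Of 13 entries tested for mitochondrial iron, iron-sulfur clusters and heme synthesis, in which SLC25A37 is listed under 2 gene identifiers, 10 were higher in liver and none in muscle (median 1.13). ALAS2, the erythroid enzyme that starts heme synthesis, was at 1037 to 1554 CPM in the 6 livers and 4.08 to 14.2 CPM in the 6 muscles (log2 fold change 7.28, SE 0.37, in ART-Normal). SLC25A37, the mitochondrial iron importer of red cell precursors, was at 4.59 (SE 0.15) for one identifier. The other identifier, with higher liver levels of 824.9 to 1085 CPM, was at 3.81 (SE 0.17). Of 8 genes for heme breakdown, export and scavenging that passed in both tissues, 4 were higher in liver and 1 in muscle (median 0.69), and 3 more passed only through liver, among them HPX and HP. Hemopexin (HPX), which binds free heme in plasma, was at 959.5 to 1502 CPM in liver and at most 1.96 CPM in muscle, with that highest muscle value in Control-AI 2. Haptoglobin (HP), which binds free hemoglobin, was at 14.8 to 33.7 CPM in liver and at most 0.151 CPM in muscle, and the heme exporter FLVCR1 was at -1.03 (SE 0.19). Each gene given here with a log2 fold change from these lists, all of which passed in both tissues, had an adjusted p at or under 0.000339 by the edgeR quasi-likelihood test in the group for which it is given.

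**Figure D5:**
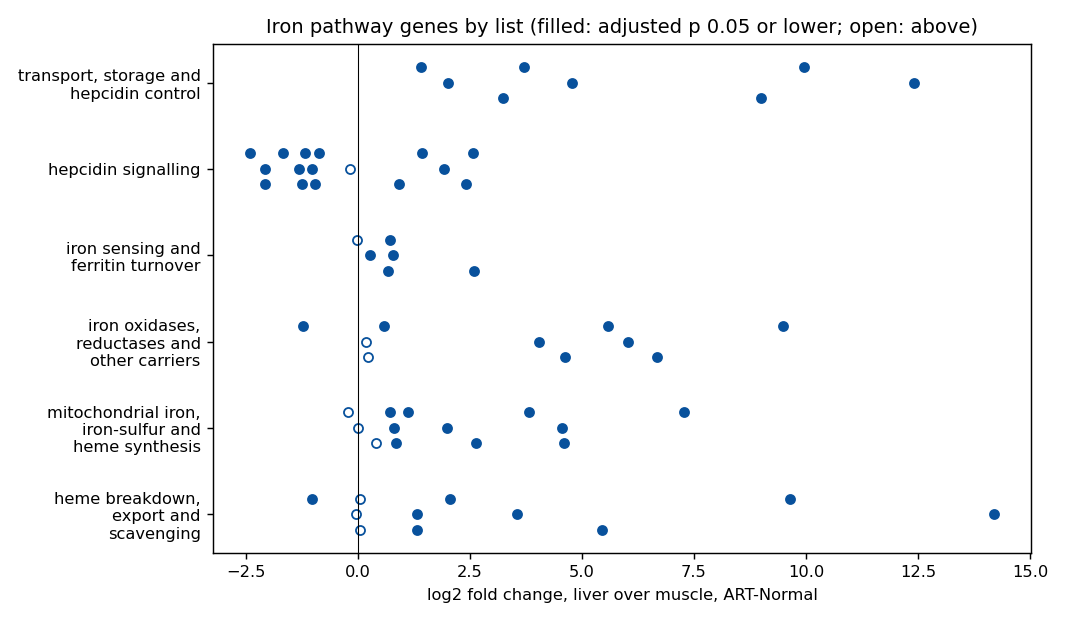
Log2 fold change of liver over muscle in ART-Normal for each tested gene of the core set (without HAMP) and of the 5 wider iron lists, 1 point per gene, filled where the adjusted p was 0.05 or lower and open where it was above. Points right of 0 are higher in liver: the hepcidin signalling list has 5 filled points to the right and 10 to the left, 1 of them BMP6, and the points of genes that passed the filter through 1 tissue only, such as HPX, had their direction fixed by it, and the core set lies between 1.42 and 12.40.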

How the data were processed

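The genes and lists were chosen with earlier results of these data known. The authors deposited raw read counts per gene for each tissue, without normalization, with positions on ARS-UCD1.2; the submitters' processing notes name HISAT2 2.1.0 and featureCounts, without settings. The listed lengths equal whole gene spans. Of the count columns, 12 were matched to labelled samples and 14 were not used here, and kidney samples were not analysed here. The authors' tables of comparisons, which hold a log2 fold change, log2 CPM, likelihood ratio, p-value and FDR, were not used.

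Two-sided quasi-likelihood tests were run in edgeR 4.0.16 (R 4.3.3) with TMM normalization on genes that reached 5 CPM in every library of 1 or more groups. P-values were adjusted by the Benjamini-Hochberg method over all genes tested, and 0.05 was the threshold. ART-Normal was compared with Control-AI within each tissue, and the tissues were compared in 1 fit of 12 libraries. Standard errors come from the fold change and its F statistic. Ratios between libraries used CPM plus 0.5. All 10 genes were named in every comparison, and from each wider list the called genes with the strongest differences, at most 2 in each direction. Each fetus is a separate animal, and p-values between conception groups measure the spread between these fetuses. The main tissue fit treated the 12 libraries as separate and did not use the pairing by fetus. Its p-values measure the spread between libraries within the groups, and the fetus as a replicate block was an alternative. Liver and muscle of a fetus carry the same fetal identifier in the labels, so the tissue samples are paired; deviations from the group mean correlated between the tissues at r of 0.45, 0.088, 0.086 and 0.57 in ART-Normal 1 to 4, across 10076 genes, which are not independent replicates. The procedures were tested on simulated data. Other normalizations, filters, tests (DESeq2 1.42.0) and left-out fetuses were tried. Plots were made with Matplotlib 3.10.9. No sequences were used here.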

Additional observations from a re-analysis of the deposited data

Results flagged for a closer look

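TFR2 in the muscle of ART-Normal fetuses had 1 library far from the other 3. ART-Normal 3 had 18 counts (0.781 CPM), against 2 to 4 counts in the others, and its gap to the nearest library was 0.87 of the group's range, above Dixon's 95% critical value for 4 libraries. Of 18 groups tested 1 was marked in this way, and chance alone marks about 1 in 20.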

How the results depend on the processing

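Under every normalization, filter, test and left-out fetus tried, TFRC, FTH1, FTL, SLC40A1 and SLC11A2 stayed higher in liver and past the threshold; TF, TFR2, HAMP and TMPRSS6 are not counted here, since the filter fixed their direction. The comparison of conception groups was less stable. With both controls, genes called numbered 8 in liver with library size alone, 120 in muscle, 89 in liver and 98 for the interaction with the likelihood ratio test, 106, 56 and 37 with DESeq2, 0 in muscle and 2 in liver with ART-Normal 1 to 3 only, and 0 and 4 with both tissues in 1 fit. Leaving out each fetus in turn gave 0 to 1327 genes in muscle, 0 to 830 in liver and 0 to 232 for the interaction. Each was highest without Control-AI 4, where Control-AI 2 was the only control. Of the core genes, 0 to 3 were called in muscle and 0 to 2 in liver. The calls, all without Control-AI 4, were FTH1 and FTL in both tissues and TF in muscle (log2 fold change -3.89). TF passed the filter in muscle there only through Control-AI 2, at 30.6 CPM. The filter thus fixed the direction of TF, and only its size is informative. All these calls rest on a control group of 1 fetus, which has no spread of its own.

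The log2 fold change of TFR2 in liver changed sign, to 0.20 with library size alone, 0.018 without a filter, 0.029 with the replicate block, and from -0.070 to 0.083 when each fetus was left out. Leaving out fetuses also gave values of both signs for SLC40A1 in muscle (-0.072 to 0.15), FTH1 in muscle (-0.25 to 1.74) and liver (-0.042 to 1.53), FTL in muscle (-0.25 to 1.73) and the TF interaction (-0.39 to 3.01), with each lowest value without Control-AI 2 and each highest without Control-AI 4. The cause was not tested. A replicate block over the numbers 2 and 4, which name different fetuses in each group, called 93 genes in muscle and 6 in liver. With the fetus as a replicate block, the tissue fits called 10623 genes in ART-Normal, 9566 in Control-AI and 0 for the interaction. No call of TFRC, FTH1, FTL, SLC40A1 or SLC11A2 changed. Library size alone moved the median of all genes by 0.21 in liver, -0.28 between the tissues of Control-AI and 0.20 for the interaction, and the share of Control-AI tissue calls higher in liver from 49.8% to 38%. Depth limits TFR2, HAMP and TMPRSS6 in muscle, with at most 18 counts in a library, and 2 controls limit every comparison of conception groups.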
